A study of Homo sapiens with 18 samples.

Results

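Lasting chromatin changes were measured in Ccd18-Co, an established line of human colon fibroblasts, by comparing cells that had once been exposed to inflammatory cytokines with cells that had not. The 6 libraries titled as stimulated with DMSO were set against the 6 titled as unstimulated, 12 of the 18 libraries of the series, and the groups were taken from the sample titles alone. DMSO cells had received 3 pulses of TNF, OSM and IL-17A at 10 ng/ml each and of IL-1B at 0.1 ng/ml. Each pulse lasted 72 h in medium without serum and was followed by 96 h of recovery, and after 1 week of rest the cells were given DMSO, a solvent, for 5 days. They were collected 2 weeks after that. Unstimulated cells had no cytokine pulse in their title, and the labels do not say whether they passed through medium without serum or received DMSO. The study's methods give an equal DMSO dilution for its modulator treatments and treatment groups, without naming the unstimulated cells of this assay. If these lacked either step, cytokines, serum withdrawal and solvent cannot be told apart. The remaining 6 libraries came from pulsed cells given belinostat, a histone deacetylase inhibitor, and entered the fits only to share the estimate of the spread. All libraries came from 1 line, seeded at 25000 cells per well, and the labels do not say that replicates were separate cultures, so p-values measure the spread between these libraries, which may be technical.

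ATAC-seq uses a transposase that cuts accessible DNA, so that fragments pile up as peaks over promoters and enhancers. TNF and IL-1 act through receptors that activate NF-kB and AP-1, OSM acts through JAK kinases and STAT3, and IL-17A adds to the NF-kB response by its own adaptor. In gut fibroblasts these cytokines induce chemokines, prostaglandin synthesis and matrix remodelling. Chromatin that stays accessible or closed after the stimulus is gone is one form that a memory of inflammation can take. A peak is called opened where its accessibility was higher in DMSO than in unstimulated cells, and closed where it was lower.

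Depth was similar in both groups, with 7077321 to 11352032 counts in peaks per unstimulated library (median 7918720) and 6488975 to 8066642 per DMSO library (median 7181110, exact permutation test, p 0.0758, adjusted p 0.0931 over 5 library measures). Their contrast between strong and weak peaks differed. The 10000 strongest peaks held 36.8% ± 1.26 (SD, n = 6) of the counts in unstimulated and 33.1% ± 1.28 (SD, n = 6) in DMSO libraries (exact permutation p 0.00216, adjusted p 0.00541, the lowest that this test allows with 6 libraries a group). The weaker 50% of peaks held 6.64% ± 1.23 (SD, n = 6) and 10.7% ± 1.39 (SD, n = 6). Peaks without a count made up 4.17% and 1.10% of all peaks, and 11.3% in unstimulated replicate 6. The biological coefficient of variation was 8.06% among unstimulated and 11.3% among DMSO libraries, and no pair of libraries within a group agreed within counting noise. The labelled cell type was checked at the starts of marker genes. All 10 fibroblast markers held a peak there, with a median of 19.2 CPM (counts scaled to a common library size) per kb in unstimulated and 18.3 in DMSO cells, against 9.84 over the start peaks of all genes. Medians were 2.77 for epithelial, 0.741 for immune, 2.24 for endothelial and 3.01 for glial and neuronal markers in unstimulated cells, and 3.88, 1.27, 3.43 and 4.25 in DMSO cells. PTPRC, CD79A, LYZ, SPI1, KRT20, CDX1, GRHL2 and ELAVL4 were among those with no peak at their start, and such markers entered the medians as 0. Other members went the other way. In unstimulated cells KRT8 (10.4), KRT18 (18.4), CD68 (27.1), TUBB3 (58.9) and SNAP25 (12.3) lay above 9.84. The fibroblast markers COL6A3 (6.43), DCN (8.67) and LUM (7.32) lay below it. In bulk libraries, a change in some of the cells and a smaller change in all of them cannot be told apart.

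Because the balance of strong and weak peaks shifted between the groups, each test was run with simple scaling and with a normalization that follows abundance. With TMM, 1 scaling factor per library, 31861 peaks (9.51% of 334857) were opened and 32570 (9.73%) closed at an adjusted p under 0.05. Loess offsets, which let the factor of each library vary smoothly with the abundance of the peak, gave 6709 opened (2.00%) and 6379 closed peaks (1.90%). They remove a shift of background reads and would equally remove a true shift of all weak peaks. Called the same way with both were 5136 opened (1.53%) and 4854 closed peaks (1.45%), which is 15.5% of the TMM calls and 76.3% of the loess calls, and 62 peaks were called in opposite directions. Below, a peak or gene is said to have risen, opened, fallen or closed only where it passed with both. Across 10 equal steps of abundance, the median log2 fold change ran from 0.73 in the weakest to -0.36 in the strongest peaks with TMM, and from 0.20 to 0.00 with loess offsets. The TMM calls therefore describe, in large part, how weak peaks stood relative to strong ones, and whether that shift came from the cells or from background reads was not tested.

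**Figure D1:**
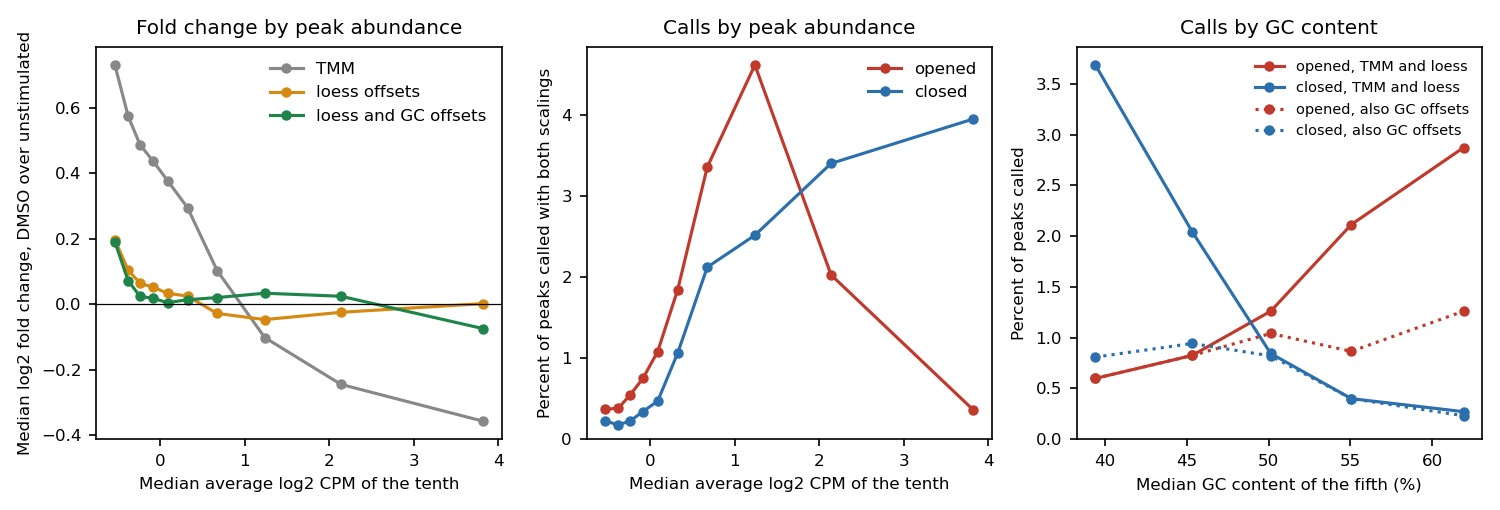
Median log2 fold change of DMSO over unstimulated cells (left) and percent of peaks opened or closed (middle) against the average log2 CPM of 10 equal steps of abundance, and percent opened or closed against the GC content of 5 equal steps (right); points are medians or shares over peaks. The slope from 0.73 to -0.36 with TMM (1 factor per library) shrank with loess offsets, opened peaks were most frequent in step 8 (4.62%) and closed ones in the strongest (3.95%), and dotted lines show that shares varied less with GC content once GC offsets were also required.

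A second trend followed base composition. In the 20.0% of peaks poorest in GC (median 39.4%), 0.597% were opened and 3.69% closed with both scalings, and in the 20.0% richest in GC (median 61.9%) 2.87% were opened and 0.270% closed. Offsets were then fitted to GC content as well as abundance, and a call with them was also required. This left 3072 opened and 2142 closed peaks called in all 3 ways. In the 5 equal steps of GC content, between 0.597% and 1.26% of peaks were then opened. Closed peaks ran from 0.230% in the step richest in GC to 0.942% in the second poorest, so shares varied less but still varied. The added requirement can only remove calls, so it does not show how calls with GC offsets alone were spread. Mean GC content weighted by counts differed little between groups, at 54.4% ± 0.117 (SD, n = 6) in unstimulated and 54.2% ± 0.127 (SD, n = 6) in DMSO libraries (exact permutation p 0.0931). PCR and sequencing can favour GC-rich or GC-poor fragments, and their part in this trend was not tested.

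The peaks that moved furthest lay away from promoters. Of 95928 peaks with a log2 CPM of 1 or more on average, 2140 were opened and 3187 closed. Among these, the 12 libraries did not overlap between groups in 543 opened and 2311 closed peaks. Overlap was read with TMM scaling, where the median log2 fold change of peaks this strong was -0.28. Peaks without overlap were counted only among called peaks, not over all peaks this strong. The counts therefore do not compare opening with closing. The largest rise by the naming rule lay in an intron of CPXM2, a gene for a secreted carboxypeptidase-like protein, at chr10:123857828-123858764. Its log2 CPM was 0.24, 0.64 and 1.21 (lowest, median and highest library) in unstimulated and 2.52, 2.98 and 3.20 in DMSO cells. All DMSO libraries were above all unstimulated ones, which the naming rule required. The log2 fold change was 2.41 ± 0.19 (SE) with TMM (adjusted p 5.23e-21), 2.67 with loess offsets and 2.63 with GC offsets added. Another, at chr4:184896829-184897483 within a lncRNA gene and 70338 bp from the start of ACSL1, which encodes an enzyme that activates long-chain fatty acids, rose from a median of -0.22 to 1.85 (2.15 ± 0.26 SE, adjusted p 2.24e-10, and 2.22 with loess offsets).

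Of the 8 largest rises, 4 lay together on chromosome 8, in or near FAM110B, a gene for a centrosome-associated protein. One, at chr8:58220820-58221341, lay in a gap between protein-coding genes and had a log2 fold change of 2.27 ± 0.27 (SE). The others were intronic peaks of FAM110B starting at 58191342, 58169466 and 58195775, with log2 fold changes of 2.16, 2.07 and 2.06. Within 100 kb of FAM110B, 10 of 43 peaks were opened and 0 closed, and all 10 were also called with GC offsets. A further rise, at chr1:209743046-209743521, was 12749 bp from the start of TRAF3IP3 and downstream of HSD11B1 (2.00 ± 0.28 SE, adjusted p 5.20e-08).

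The largest falls by the naming rule were smaller. Their peaks had an average log2 CPM of 1.02 to 1.46, and those of the largest rises 1.05 to 2.35, where the rule required at least 1. A peak in a gene desert at chr8:59769018-59769589, 512097 bp from the start of CA8, fell by 1.89 on the log2 scale (adjusted p 1.83e-08), from a median log2 CPM of 1.72 to 0.08. One at chr11:100459812-100460181, 227292 bp from ARHGAP42, a gene for a GTPase activating protein, had log2 CPM of 1.58, 1.84 and 2.04 in unstimulated and -0.07, 0.26 and 0.68 in DMSO cells (-1.73 ± 0.25 SE, adjusted p 1.31e-07). An intronic peak of PIGU, which takes part in attaching GPI anchors, fell from a median of 2.26 to 0.78 (chr20:34605019-34605418, -1.67 ± 0.21 SE, adjusted p 1.84e-09). An intronic peak of DOCK8, a guanine nucleotide exchange factor known from immune cells, fell from 1.79 to 0.41 (chr9:249916-250462, -1.58 ± 0.24 SE, adjusted p 5.92e-07). The other 4 falls lay near XCL1, GTF3A, KCNMB4 and HSF2, with log2 fold changes from -1.56 to -1.45. All 16 peaks had the same direction and passed under each of the 38 other settings, single libraries left out included.

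The middle 300 bases of 2 of the largest rises and 3 of the largest falls described above are printed to show what DNA the most changed peaks hold (hg38, plus strand, 5′ to 3′). Capitals mark matches, on either strand, to 15 short words close to the binding motifs of factor families.

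CPXM2 intron, opened, chr10:123858147-123858446: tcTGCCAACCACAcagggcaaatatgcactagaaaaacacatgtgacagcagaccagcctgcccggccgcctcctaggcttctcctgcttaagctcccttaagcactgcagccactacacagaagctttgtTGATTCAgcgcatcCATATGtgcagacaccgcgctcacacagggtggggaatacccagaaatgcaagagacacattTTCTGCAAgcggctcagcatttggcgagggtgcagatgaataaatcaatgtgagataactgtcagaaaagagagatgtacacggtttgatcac
Near ACSL1, opened, chr4:184897007-184897306: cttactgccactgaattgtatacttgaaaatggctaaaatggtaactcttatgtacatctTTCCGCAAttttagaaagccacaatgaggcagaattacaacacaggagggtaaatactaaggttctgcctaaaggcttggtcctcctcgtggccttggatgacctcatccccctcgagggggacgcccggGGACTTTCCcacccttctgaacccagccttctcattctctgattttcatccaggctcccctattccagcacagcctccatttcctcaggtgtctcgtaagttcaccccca
Near ARHGAP42, closed, chr11:100459847-100460146: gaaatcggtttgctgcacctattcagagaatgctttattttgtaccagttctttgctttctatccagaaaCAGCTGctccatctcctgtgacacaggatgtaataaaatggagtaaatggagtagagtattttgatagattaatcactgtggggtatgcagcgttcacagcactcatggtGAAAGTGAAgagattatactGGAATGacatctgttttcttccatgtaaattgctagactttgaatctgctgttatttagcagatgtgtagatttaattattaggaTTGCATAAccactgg
PIGU intron, closed, chr20:34605069-34605368: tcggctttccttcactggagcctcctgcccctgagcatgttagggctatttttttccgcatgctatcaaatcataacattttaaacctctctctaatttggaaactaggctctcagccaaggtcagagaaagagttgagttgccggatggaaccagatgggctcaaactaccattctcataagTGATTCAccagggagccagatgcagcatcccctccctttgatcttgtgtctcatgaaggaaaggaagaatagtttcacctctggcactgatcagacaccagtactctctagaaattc
DOCK8 intron, closed, chr9:250040-250339: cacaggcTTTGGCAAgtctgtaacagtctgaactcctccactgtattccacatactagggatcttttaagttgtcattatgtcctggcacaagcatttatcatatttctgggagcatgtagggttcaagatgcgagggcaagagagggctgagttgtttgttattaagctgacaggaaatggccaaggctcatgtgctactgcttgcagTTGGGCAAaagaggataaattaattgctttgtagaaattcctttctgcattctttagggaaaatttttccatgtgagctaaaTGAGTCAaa

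The opened CPXM2 peak held 1 match each to the AP-1 word TGANTCA, the CEBP word TTGCNNAA, the RUNX word TGTGGT, the NFI word TTGGCA and the E-box CATATG. The peak near ACSL1 held 1 match to the NF-kB word GGANTTTCC and 1 CEBP match. Among the closed ones, that near ARHGAP42 held CAGCTG, the TEAD word CATTCC, the IRF word GAAANNGAA and a CEBP match, that in PIGU an AP-1 match, and that in DOCK8 1 AP-1, 2 CEBP and 1 NFI match, of which 1 CEBP match overlaps the NFI match. The AP-1 word thus occurred in peaks of both directions. A match is a description of the letters and not a binding site.

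Over many peaks the words differed between directions. To narrow the range of abundance and base composition, shares were read in the central 200 bp of 39222 peaks away from protein-coding starts with a log2 CPM of 0.5 to 3 and a GC content of 42% to 52%, of which 704 were opened and 1169 closed with both scalings. Within this range opened and closed windows were not matched for abundance or GC content, and the part of either in the shares was not tested. The E-box CAGCTG, read by basic helix-loop-helix factors, was in 18.95% of all these windows, 11.8% of the opened and 32.6% of the closed ones. The TEAD word CATTCC was in 20.2%, 14.1% and 29.5%, and the NFI word TTGGCA in 13.4%, 8.95% and 16.5%. Matches to the RUNX word TGTGGT were in 18.0% of all, 23.4% of opened and 16.5% of closed windows. The AP-1 word TGANTCA was in 22.7% of all, 17.8% of opened and 11.5% of closed windows, but in 22.3% of the windows called opened with loess offsets, whether or not TMM called them. Shares of the NF-kB word GGANTTTCC (1.26%, 1.28% and 1.11%), the CEBP word TTGCNNAA (13.5%, 13.5% and 13.8%) and the STAT word TTCCNGGAA (1.07%, 1.42% and 1.20%) lay close together. The cyclic AMP response (CRE) word TGACGTCA was in 0.207% of all, 0.710% of opened and 0 of closed windows. Peaks are not replicates of a condition, so these shares carry no test. Closed windows called with TMM alone held CAGCTG in 26.1% and CATTCC in 28.2%, with loess offsets in 32.5% and 29.3%, and with GC offsets also required in 36.7% and 30.7%. Opened windows held them in 11.3% and 13.2%, in 13.6% and 13.8%, and in 11.5% and 14.0%.

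Over all peaks, with no limit on abundance or GC content, the windows of all, opened and closed peaks held CAGCTG in 17.2%, 16.3% and 25.6%, CATTCC in 15.5%, 12.0% and 27.2%, and TGANTCA in 14.1%, 8.68% and 12.9%. Peaks opened by loess offsets held TGANTCA in 13.0%. The remaining words in the middle range, in the same order, were the ETS word CCGGAA (2.39%, 1.99% and 1.71%), the E-box CATATG (4.34%, 6.25% and 6.59%), the FOX word TGTTTAC (6.21%, 4.97% and 6.50%), the IRF word GAAANNGAA (7.45%, 5.54% and 7.36%), the SP word GGGCGG (2.95%, 1.85% and 2.14%) and the CTCF word AGNNGGCGC (1.68%, 0 and 0.599%). STAT and ETS words can share letters, as can CEBP and NFI words. The same peaks could count for several words.

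**Figure D2:**
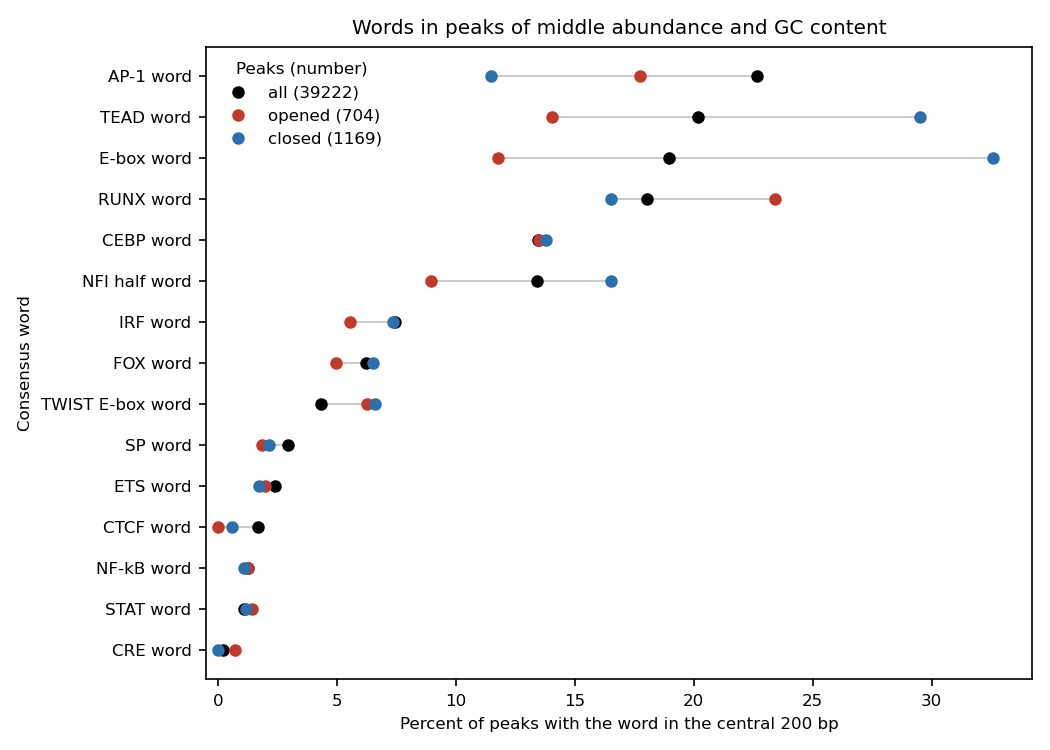
Share of peak centres that hold a word close to a factor family's motif, in percent, among all, opened and closed peaks of middle abundance and GC content away from protein-coding starts. Closed peaks lay above all peaks for CAGCTG (32.6% against 18.95%) and the TEAD word (29.5% against 20.2%), and for the AP-1 word closed peaks (11.5%) lay below all peaks (22.7%).

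Opened and closed peaks were spread unequally over the genome. Of the 29153 peaks within 1 kb of a protein-coding start, 0.950% were opened and 0.731% closed with both scalings, fewer in both directions than over all peaks. Peaks in introns stood at 1.39% and 1.60%, those in the bodies of lncRNA genes at 1.47% and 1.79%, those at lncRNA starts at 1.51% and 1.46%, intergenic peaks at 1.68% and 1.31%, and exonic peaks at 2.17% and 0.959%. Peaks in gene deserts, outside gene bodies and over 100 kb from any protein-coding start, stood at 2.05% and 1.60%. Of 14912 wide peaks, of at least 1 kb and mostly strong (median log2 CPM 4.02), 682 were opened (4.57%) and 317 closed (2.13%). In the strongest of the 10 equal steps of abundance only 120 of 33486 peaks were opened (0.358%). Most of the opened wide peaks were thus weaker than that step. Peaks in the last 1 Mb of chromosome arms leaned to opening, with 316 of 8515 opened (3.71%) and 62 closed (0.728%), and with GC offsets also required 156 and 38 remained. In olfactory receptor loci 7 of 353 peaks were opened and 4 closed, and in the zinc finger loci of chromosome 19 7 of 830 were opened and 1 closed. These shares follow abundance in part. Among peaks with a log2 CPM of 1 or more, of which 2.23% were opened and 3.32% closed, wide peaks stood at 4.56% and 2.13%, gene deserts at 4.57% and 5.50% and the ends of arms at 6.73% and 1.92%.

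Shares of counts, which treat each library as 1 value, moved from promoters to the rest of the genome. Protein-coding starts held 37.1% ± 0.907 (SD, n = 6) of counts in unstimulated and 34.0% ± 1.15 (SD, n = 6) in DMSO libraries (exact permutation p 0.00433, adjusted p 0.00529 over 11 classes), and wide peaks 31.3% ± 0.752 (SD, n = 6) and 28.6% ± 0.947 (SD, n = 6) (exact permutation p 0.00216, adjusted p 0.00529). Introns went from 29.3% to 30.4%, intergenic peaks from 14.1% to 14.9%, gene deserts from 5.17% to 5.72%, lncRNA bodies from 7.03% to 7.33% and exons from 3.15% to 3.46%. The lncRNA starts went from 4.23% to 4.13%, the ends of chromosome arms from 2.60% to 2.70%, olfactory receptor loci from 0.0384% to 0.0474% and the zinc finger loci from 0.696% to 0.656%. Each of the 11 classes passed (adjusted p at most 0.00649), and the DMSO libraries were also those with more of their counts in weak peaks. When the mean log2 CPM of each class was taken after loess offsets instead, the differences of protein-coding starts (0.02), lncRNA starts (0.03), wide peaks (0.07) and the zinc finger loci (0.07) were above 0. This measure differs from the share both in its scaling and in giving each peak the same weight, and their parts were not told apart. Exons, intergenic peaks, gene deserts, the ends of arms and olfactory receptor loci kept their direction and passed with both measures.

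**Figure D3:**
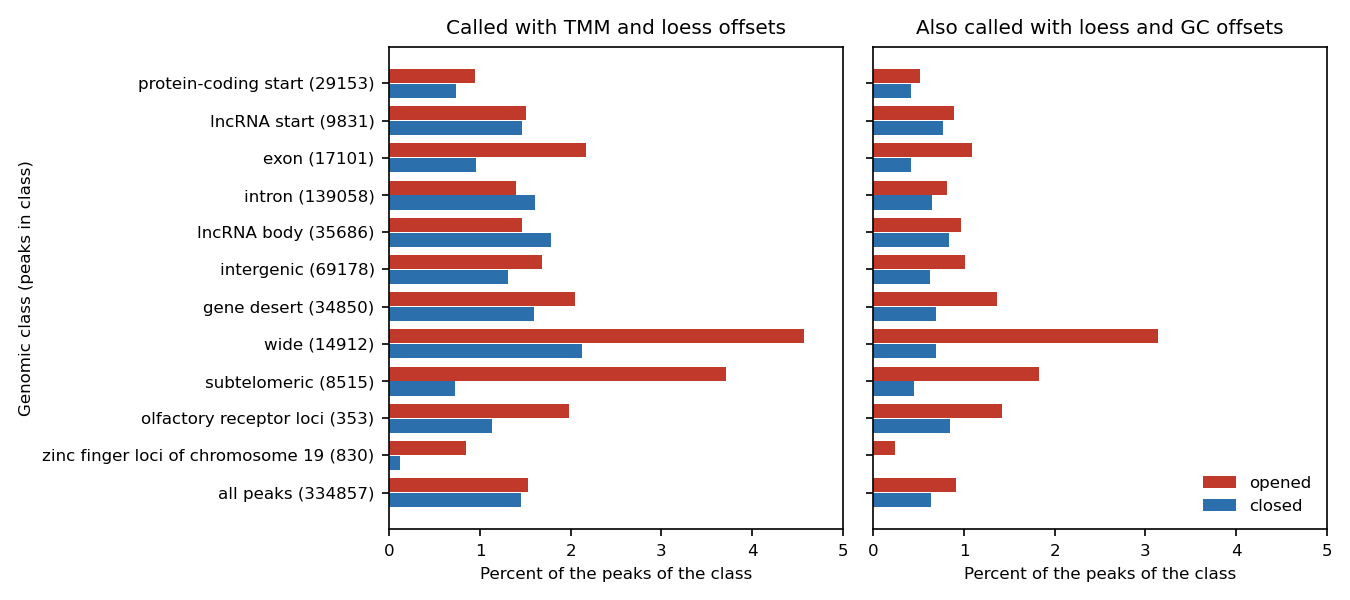
Percent of the peaks of each genomic class (number of peaks in brackets) that were opened or closed in DMSO against unstimulated cells with both scalings (left) and with GC offsets also required (right); each bar is a share of peaks and carries no error. Wide peaks (4.57%) and the last 1 Mb of chromosome arms (subtelomeric, 3.71%) had the longest bars for opened peaks on the left, and on the right wide peaks had 3.15% opened and 0.691% closed.

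By chromosome, opened peaks were most frequent on chromosomes 21 (3.32%), 22 (2.71%) and 19 (2.26%), and closed peaks on chromosome 4 (2.02%). Of the 142 opened peaks of chromosome 21, 40 lay at chr21:10000001-11000000, a window described below, and 14 at chr21:9000001-10000000. With GC offsets also required chromosomes 21 (2.36%) and 22 (1.46%) stayed highest for opened peaks, chromosome 19 stood at 1.01%, and closed peaks were most frequent on chromosome 9 (0.871%, against 0.724% on chromosome 4). Among 2158 windows of 1 Mb with at least 50 peaks, those most opened lay beside centromeres, where long repeated segments make the placement of reads uncertain: 18 of 51 peaks at chr4:49000001-50000000, 19 of 59 at chr22:11000001-12000000, 40 of 141 at chr21:10000001-11000000 and 37 of 194 at chr15:20000001-21000000, with 0 closed in each. The next was the window that holds the start of FAM110B, chr8:57000001-58000000 (13 of 70 opened, 3 closed), and 8 of 66 were opened at chr7:90000001-91000000, which holds STEAP2. Closed peaks gathered around TOX (8 of 54 at chr8:59000001-60000000), at the start of MYO16 (11 of 75 at chr13:108000001-109000000), in ROBO2 (7 of 52 at chr3:76000001-77000000), around GHR, the growth hormone receptor (11 of 91 at chr5:42000001-43000000), and around RSPO2, an enhancer of WNT signalling (9 of 77 at chr8:108000001-109000000). With GC offsets also required, 5, 4, 1, 6 and 4 of these closed peaks remained, in the same order.

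Accessibility was then summed for 18893 protein-coding genes, each over its gene body and the 3 kb before its start. With TMM 3687 loci were higher (19.5%) and 2309 lower (12.2%), and with loess offsets 2557 (13.5%) and 1408 (7.45%). Called the same way with both were 2290 higher (12.1%) and 965 lower loci (5.11%), and 0 loci were called in opposite directions. The median log2 fold change of all loci was -0.02 with either. A long gene made of many weak peaks counts as abundant in this sum, so that the trend of its weak peaks stays in its total. With offsets carried over from the peaks of each locus, here called peak-level offsets, 1124 of the higher and 368 of the lower loci also passed, and 550 and 231 with peak-level offsets for GC content as well.

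PTGS2, which encodes the inducible cyclooxygenase that makes prostaglandins in inflammation, had the largest rise among loci that met the naming rule. Its locus (chr1:186671791-186680922) held 1 peak, over the start, and its log2 CPM was 3.09, 3.23 and 3.54 in unstimulated and 4.42, 4.75 and 4.83 in DMSO cells. The groups lay far apart, and the rise on the log2 scale was 1.47 ± 0.09 (SE, adjusted p 8.57e-12) with TMM, 1.42 with loess offsets, 1.58 with peak-level offsets and 1.38 with GC content added. Within 100 kb of the gene 4 of 13 peaks were opened and 0 closed. The 250 bases before the start that RefSeq gives (GRCh38.p14, minus strand, chr1:186680424-186680673) lie within that peak. They hold 1 match to the 15 words, a CEBP word shown in capitals, which 9.05% of 35116 RefSeq promoters of this length hold.

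PTGS2 promoter: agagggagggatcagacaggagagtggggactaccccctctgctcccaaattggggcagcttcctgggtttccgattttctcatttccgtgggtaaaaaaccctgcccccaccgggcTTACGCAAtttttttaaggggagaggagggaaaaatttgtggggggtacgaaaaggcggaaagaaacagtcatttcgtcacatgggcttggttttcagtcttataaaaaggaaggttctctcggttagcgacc

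HSD11B1, the enzyme that turns inactive cortisone into cortisol inside cells, was the second (chr1:209686178-209734949). Its log2 CPM was 4.39, 4.65 and 4.70 in unstimulated and 5.90, 5.92 and 5.99 in DMSO cells, a rise of 1.34 ± 0.06 on the log2 scale (SE, adjusted p 7.75e-14), 1.38 with loess and 1.36 with peak-level offsets. Of its 8 peaks 4 were opened. The peak at a start went from a median log2 CPM of 3.02 to 4.28 (1.22), and an intronic peak at chr1:209720331-209721193 from 1.54 to 3.27 (1.93). Within 100 kb 10 of 45 peaks were opened and 0 closed.

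CPXM2 rose over much of its length, with 11 of 62 peaks opened, the peak at its start among them, and 0 closed (chr10:123706207-123940267). The locus went from 4.75, 5.25 and 5.46 to 5.99, 6.45 and 6.61 log2 CPM, by 1.25 ± 0.10 (SE, adjusted p 6.12e-09) with TMM and 0.85 with peak-level offsets. STEAP2, a metalloreductase for iron and copper, had 5 of its 6 peaks opened and went from 4.59, 4.76 and 4.78 to 5.82, 5.91 and 6.10 (chr7:90167590-90238137, 1.24 ± 0.06 SE, adjusted p 2.62e-13, and 1.30 with peak-level offsets). The peak at one of its starts was the strongest of these and went from a median of 4.13 to 4.82. HEPHL1, a copper-containing ferroxidase, went from 3.21, 3.61 and 3.79 to 4.56, 4.76 and 4.98 (chr11:94021354-94114208, 1.22 ± 0.10 SE, adjusted p 2.05e-09, and 1.08 with peak-level offsets), and its start and an intronic peak were opened. In these 3 loci the 12 libraries did not overlap, which the naming rule required.

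The other 3 of the 8 largest rises were very long genes. DSCAM, a neuronal adhesion molecule, rose by 1.20 ± 0.19 on the log2 scale (SE, adjusted p 0.000108), CALN1, a calcium-binding protein of neurons, 1.20 ± 0.17 (SE, adjusted p 3.98e-05), and TMEM132C, a transmembrane protein, 1.17 ± 0.20 (SE, adjusted p 0.000309). With peak-level offsets the values were 0.51, 0.56 and 0.51. They held 64 to 69 peaks each, of which 1 was opened in DSCAM, 2 in CALN1 and 1 in TMEM132C, and the median peak of each had a log2 CPM between -0.34 and -0.30. Their summed rise thus includes many weak peaks that were not called one by one. The opened peak at the start of CALN1 was an exception, from -1.81, -1.13 and -0.73 to 0.27, 0.47 and 0.93 log2 CPM (2.74, adjusted p 1.20e-05).

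The largest falls were in smaller loci. OR6V1, an olfactory receptor gene, had 2 peaks before its start, both closed (chr7:143052341-143053282), and its log2 CPM went from 3.17, 3.53 and 3.98 to 2.31, 2.74 and 3.15 (-0.89 ± 0.16 SE, adjusted p 0.000326, and -0.93 with peak-level offsets). Within 100 kb 8 of 34 peaks were closed and 2 opened. HCRTR2, the type 2 orexin receptor, went from 2.23, 2.51 and 2.58 to 1.33, 1.77 and 1.95 (-0.77 ± 0.21 SE, adjusted p 0.00820, and -1.17 with peak-level offsets). FAM209A and GCNT7 are overlapping genes whose falls (-0.79 and -0.69) rested on 1 shared peak at chr20:56515709-56517066, which went from a median of 4.84 to 3.91. The intronic peak of SERPINB12, a protease inhibitor of the ovalbumin family, at chr18:63552868-63553561 went from 4.56, 4.90 and 5.33 to 3.37, 3.88 and 4.18, and the locus by -0.72 ± 0.12 (SE, adjusted p 0.000155). TLR3, the receptor for double-stranded RNA, had peaks closed at 2 of its starts, neither of which passed with GC offsets added. Its locus went from 3.70, 3.91 and 4.12 to 3.27, 3.39 and 3.51 (-0.53 ± 0.10 SE, adjusted p 0.000556). A2M, the protease inhibitor alpha-2-macroglobulin, went from 4.36, 4.49 and 4.64 to 3.55, 4.01 and 4.29 (-0.54 ± 0.10 SE, adjusted p 0.000396), and CNTNAP3C, which has near-identical copies, by -0.60 ± 0.15 (SE, adjusted p 0.00367). In each of these 8 falls all DMSO libraries were below all unstimulated ones.

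**Figure D4:**
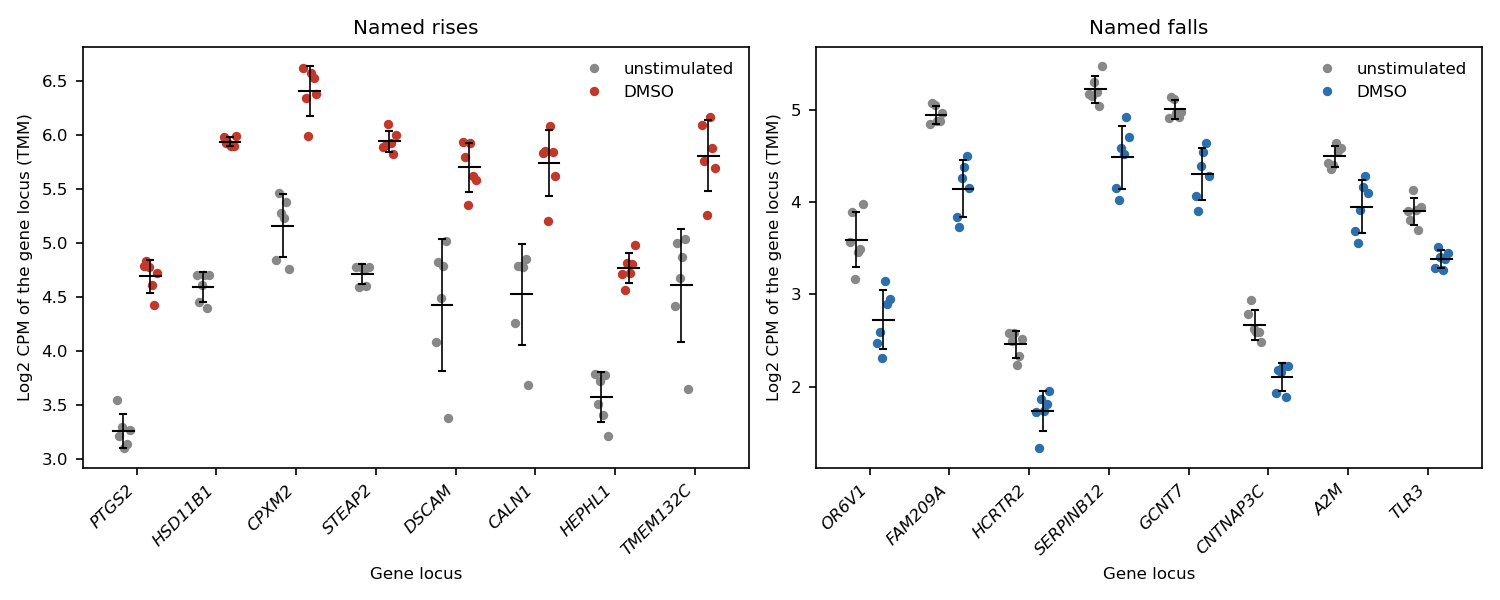
Accessibility in log2 CPM of the 8 loci that rose most (left) and the 8 that fell most (right) by the naming rule (points are libraries, bars mean ± SD, n = 6 a group). In each locus the 12 libraries of the groups did not overlap, which the naming rule required, and PTGS2 moved from 3.09 to 3.54 up to 4.42 to 4.83.

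Counted by peaks, PTPRN2, a phosphatase-like protein of secretory granules near the end of chromosome 7, had most opened peaks (25 of 382), followed by KATNAL2 (12 of 30), LRMDA (12 of 166, with 4 closed), CPXM2 (11 of 62) and ZDHHC11B (11 of 37). Most closed peaks were in GPC6, a cell surface proteoglycan (14 of 123), MYO16 (12 of 66), LDLRAD4, an inhibitor of TGF-beta signalling (9 of 125, with 2 opened), MAML2, a coactivator of NOTCH (9 of 83), and ELMO1 (8 of 98, as many as in SHROOM3 and KIF6). With GC offsets also required, 13, 11, 12, 10 and 9 of the opened and 2, 5, 5, 2 and 5 of the closed peaks remained, in the same order.

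Gene lists drawn up for this stimulus and tissue were read against the 12.1% of all loci that were higher and the 5.11% that were lower, and against the median of -0.02. Among 22 receptors and adaptors of TNF, IL-1, IL-17 and OSM signalling, 2 rose and 1 fell, with a median of -0.05 (TMM, as for the lists that follow). TNFRSF1B, the second TNF receptor, went from 5.49, 5.55 and 5.74 to 5.70, 5.81 and 5.97 log2 CPM (0.24 ± 0.06 SE, adjusted p 0.00485, and 0.23 with peak-level offsets). TRAF2, an adaptor of TNF receptors, rose by 0.12 and IL1R1, the signalling IL-1 receptor, fell by 0.14, and neither passed with peak-level offsets. Of 18 NF-kB subunits and inhibitors, IKBKB, the kinase that releases NF-kB, rose (0.25 ± 0.06 SE, adjusted p 0.00318, and 0.22 with peak-level offsets) and MAP3K14, the kinase of the alternative pathway, fell (-0.16, and -0.06 with peak-level offsets). Of 16 AP-1 and CEBP factors BATF rose (0.19, adjusted p 0.0369) and CEBPB fell (-0.22, adjusted p 0.00920), the latter lost with peak-level offsets (-0.08). The rises of TNFRSF1B and IKBKB were 0.05 and 0.06 once GC content was also fitted and did not pass.

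Among 15 chemokine genes with a peak, 3 rose and 1 fell, with a median of 0.20 with TMM, -0.04 with loess and 0.19 with peak-level offsets. CXCL5, which attracts neutrophils, held 1 peak, at its start, and went from 1.49, 1.83 and 2.11 to 2.47, 2.68 and 3.26 log2 CPM (0.99 ± 0.17 SE, adjusted p 0.000291, 0.55 with loess and 0.98 with peak-level offsets). CXCL1, another neutrophil attractant on the same chromosome, went from 4.71, 4.75 and 4.81 to 4.84, 5.05 and 5.23 (0.30 ± 0.07 SE, adjusted p 0.00297, 0.41 with peak-level offsets, and 0.18, no longer past the threshold, with GC content added), and CX3CL1, a membrane-bound chemokine, from 4.73, 4.92 and 5.02 to 5.02, 5.22 and 5.31 (0.29 ± 0.06 SE, adjusted p 0.00133). CXCL14 fell (-0.26, adjusted p 0.00780). CXCL8, which encodes interleukin-8, had 0.45 with TMM (adjusted p 0.0495), whereas loess offsets gave -0.04 (adjusted p 0.907). CXCL9, CXCL10 and CXCL11 had no peak. Of 12 cytokine genes, members of the IL-6 family and colony-stimulating factors together with IL33 of the IL-1 family, 0 were called with both scalings, and IL33 passed with TMM alone (0.35, adjusted p 0.0188).

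Of 11 prostaglandin genes 2 rose and 0 fell, with a median of 0.07. Beside PTGS2, PTGFR, the receptor for prostaglandin F2-alpha, went from 4.24, 4.60 and 4.75 to 5.20, 5.31 and 5.42 log2 CPM (chr1:78303884-78540701, 0.77 ± 0.07 SE, adjusted p 3.98e-08, 0.79 with loess, 0.63 with peak-level and 0.66 with GC offsets added). The peak at its start went from 2.47, 2.82 and 3.22 to 3.33, 3.59 and 3.76, and 3 more of its 13 peaks were opened. The other 9 genes were not called with both: PTGS1, the constitutive cyclooxygenase, had -0.01, PTGES, which makes prostaglandin E2, had 0.07, and its receptors PTGER2 and PTGER4 had -0.05 and -0.17.

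Lists drawn from the study for inflammatory fibroblasts (IF) gave mixed directions. Of 17 IF transcription factors 0 rose and 4 fell (BNC2, ETS1, ETS2 and CEBPB, by -0.22 to -0.12), with a median of -0.07. BNC2 passed with peak-level offsets (-0.15) but had 0.01 once GC content was fitted. Of 16 genes listed as IF markers 3 rose, namely CXCL5, CXCL1 and CA12. CA12, a carbonic anhydrase that the study uses to mark a state of universal fibroblasts rather than IF, went from 5.75, 5.76 and 5.84 to 5.91, 6.04 and 6.28 (0.30 ± 0.06 SE, adjusted p 0.00101). THY1 and IL1R1 fell and did not pass with peak-level offsets. The study named IF factors and markers largely from patient tissue and earlier work, not from these libraries. It also compared cytokine-treated with unstimulated cells by bulk ATAC-seq, so the values here are not independent evidence of a direction.

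Of 17 genes of the TGF-beta pathway 0 rose and 3 fell, each of which passed with peak-level offsets with and without GC content, and the median was -0.13. SMAD6 and SMAD7, the inhibitory SMAD proteins that dampen BMP and TGF-beta signals, fell together. SMAD6 went from 7.79, 7.90 and 7.93 to 7.46, 7.65 and 7.71 log2 CPM (chr15:66702236-66782849, -0.26 ± 0.04 SE, adjusted p 0.000108), with 3 of 22 peaks closed, and its intronic peak at chr15:66747727-66748839 from 4.82, 4.95 and 5.30 to 3.53, 4.20 and 4.44. SMAD7 went from 7.26, 7.31 and 7.32 to 7.02, 7.07 and 7.12 (chr18:48919853-48950965, -0.23 ± 0.04 SE, adjusted p 0.000149). LTBP2, a latent TGF-beta binding protein of microfibrils, fell by 0.13. The 3 genes that fell include no ligand and no type I or II receptor, and 4 further members (TGFBR1, SMAD3, SMAD4 and THBS1) were lower with TMM alone.

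Of 23 collagens and matrix genes 2 rose and 3 fell, with a median of -0.07, and of their 566 peaks 2 were opened and 16 closed (1 and 3 with GC offsets also required). COL6A3 went from 6.48, 6.59 and 6.65 to 6.63, 6.73 and 6.97 (0.21 ± 0.05 SE, adjusted p 0.00372). COL12A1 went from 7.18, 7.23 and 7.30 to 6.79, 7.02 and 7.18 (-0.22 ± 0.06 SE, adjusted p 0.00568), and COL14A1 fell by 0.15, while ELN (0.18) and SPARC (-0.16) were lost with peak-level offsets. COL14A1 had 0.04 once GC content was fitted. Of 20 metalloproteinases and their inhibitors MMP12, a macrophage elastase, fell (-0.23, adjusted p 0.0378, and -0.26 with peak-level offsets) but had 0.0068 once GC content was fitted. Of 18 contractile genes 0 were called with both (1 higher and 4 lower with TMM), with a median of -0.08. In 14 genes that mark fibroblasts of many tissues, 5 rose and 1 fell. C3, the central complement component, went from 3.19, 4.08 and 4.40 to 4.62, 4.93 and 5.05 log2 CPM (chr19:6677704-6730562, 0.88 ± 0.14 SE, adjusted p 0.000109, 0.88 with loess, 0.59 with peak-level and 0.42 with GC offsets added), with 4 of 16 peaks opened. CD55, which protects cells from complement, rose by 0.18 and GSN, an actin-severing protein, fell by 0.14, and both passed with peak-level offsets (CD55 not once GC content was added, 0.16), whereas PI16 (0.61), PCOLCE2 (0.50) and SFRP1 (0.29) did not.

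Of 19 BMP and WNT genes of stroma 5 rose and 3 fell, with a median of -0.04, and 2 of the rises and 1 of the falls also passed with peak-level offsets. RSPO1, an R-spondin that supports epithelial stem cells, went from 5.44, 5.49 and 5.55 to 5.15, 5.24 and 5.41 (-0.23 ± 0.06 SE, adjusted p 0.00331, -0.25 with peak-level and -0.33 with GC offsets added). WNT4, a secreted WNT ligand, rose by 0.19 ± 0.07 on the log2 scale (SE, adjusted p 0.0434, and 0.19 with peak-level offsets), but did not pass once GC content was also fitted (0.15). SFRP2 (0.92), RSPO3 (0.47), BMP7 (0.21), BMP4 (-0.23) and FRZB (-0.24) were lost with those offsets. Of 17 transcription factors of gut mesenchyme PRRX1, a regulator of fibroblast identity, rose from 5.11, 5.22 and 5.38 to 5.55, 5.63 and 5.96 (chr1:170662728-170739421, 0.45 ± 0.07 SE, adjusted p 7.79e-05, 0.32 with peak-level and 0.37 with GC offsets added), and FOXL1 (-0.19) and SNAI2 (-0.24) fell without passing at peak level. Of 14 YAP and TEAD genes CCN2 (-0.23) and AMOTL2 (-0.26) fell, and neither passed with peak-level offsets.

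Of 20 interferon response genes 0 rose and 2 fell, with a median of -0.11. IFIT3, an interferon-induced protein, went from 6.40, 6.44 and 6.50 to 6.00, 6.22 and 6.35 (-0.25 ± 0.07 SE, adjusted p 0.00602, and -0.21 with peak-level offsets), but had -0.04 once GC content was fitted. Of 14 antigen presentation genes PSMB8, an immunoproteasome subunit, fell (-0.23), and of 16 arrest and senescence genes GADD45A fell (-0.23), neither with peak-level offsets. Among 24 chromatin writers and erasers 4 rose and 1 fell. HDAC4 (0.14) and DNMT3A (0.18) rose and HDAC2 fell (-0.18) with peak-level offsets too, and SMARCA4 (0.35) and HDAC8 (0.26) did not pass with them. With GC content added HDAC2 still passed (-0.14), whereas HDAC4 (0.06) and DNMT3A (0.09) did not, and both of the latter turned below 0 with TMM over 10 kb bins.

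Markers of other cell types were counted in the same way. With both scalings 3 of 8 immune, 4 of 8 endothelial, 2 of 10 epithelial and 1 of 10 glial and neuronal markers rose and 0 fell, and of 10 fibroblast markers 1 rose and 2 fell. Over all loci 12.1% rose and 5.11% fell. With peak-level offsets, 1 each of the 4 foreign lists remained (SPI1, PECAM1, CDX1 and SNAP25). PECAM1, an adhesion molecule of endothelium, had the largest of these values (0.46 with TMM and 0.31 with peak-level offsets). CPM per kb at the start peaks of endothelial markers ran from 1.45 to 6.71 over the 8 genes in unstimulated and from 2.18 to 7.21 in DMSO cells. These markers moved in the direction of weak peaks in general, and their part in the gene results was not tested.

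**Figure D5:**
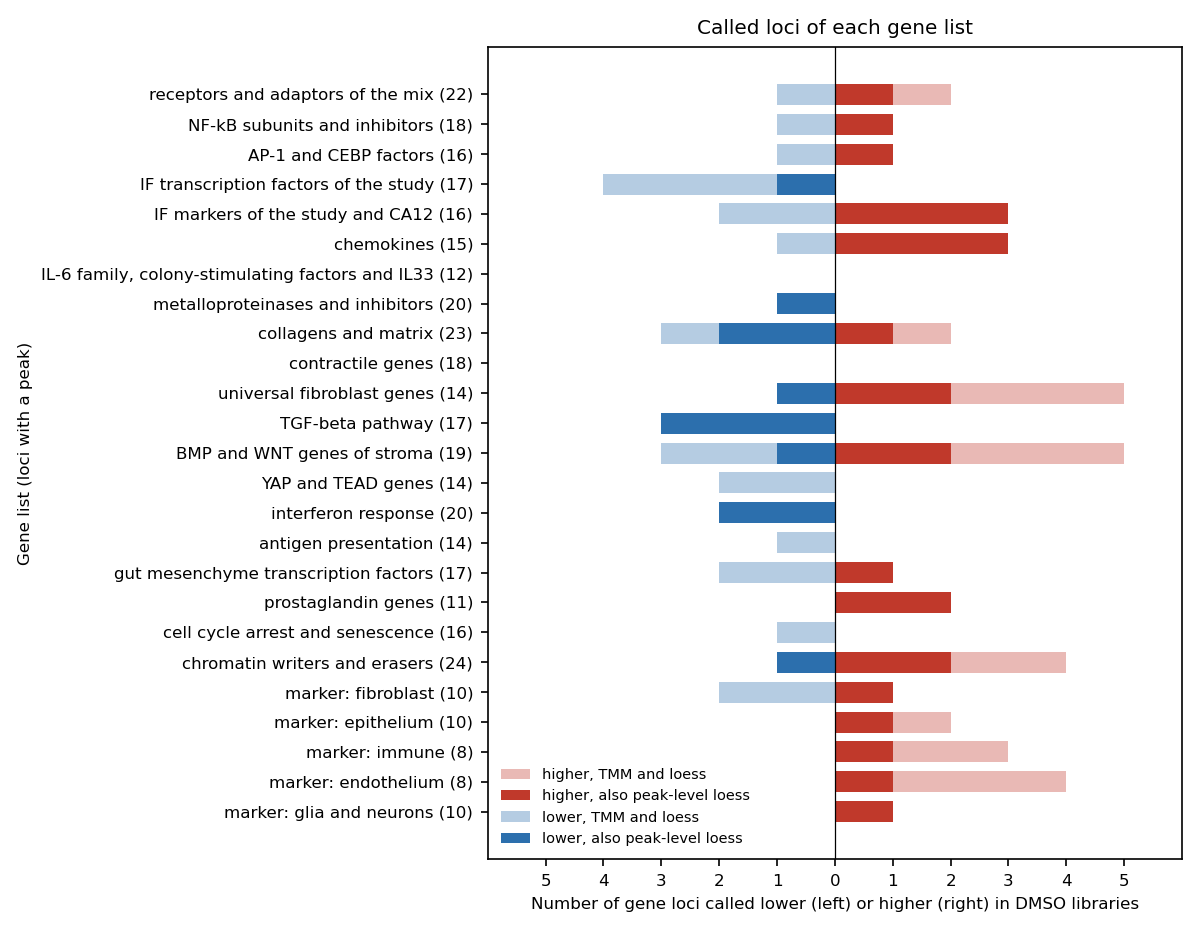
Number of gene loci of each list (loci with a peak in brackets) called lower, to the left, or higher, to the right, in DMSO against unstimulated cells; pale bars are calls with both scalings and dark bars those that also passed with peak-level offsets. The TGF-beta pathway had 0 higher and 3 lower of 17 loci, all 3 dark, and the chemokines 3 higher, all dark, and 1 lower, pale, of 15.

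Large gene families placed these lists in context. Over all 18893 loci 12.1% rose and 5.11% fell with both scalings, and 1124 and 368 loci also passed with peak-level offsets. Olfactory receptor genes, silent in fibroblasts, showed the effect of scaling most: of 176 loci 73 were higher with TMM and 11 with both scalings, and their median fell from 0.86 with TMM to 0.08 with loess and 0.22 with peak-level offsets. Of 44 collagen genes 14 rose and 2 fell (7 and 2 with peak-level offsets), of 365 solute carrier genes 82 and 21 (39 and 8), of 19 cadherin genes 5 and 0 (3 and 0), and of 48 keratin genes 3 and 1 (3 and 1). Ribosomal protein genes, which have strong promoters, had 0 of 73 higher and 5 lower with both scalings, of which 1 passed with peak-level offsets. Of 507 zinc finger genes 17 rose and 21 fell, of 70 histone genes 0 and 3, of 38 HOX genes 3 and 2, and of 49 clustered protocadherins 0 and 0.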

How the data were processed

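Omni-ATAC libraries of 12 samples were compared, 6 DMSO against 6 unstimulated. The deposited values are raw counts: the authors aligned reads to hg38, removed duplicates and mitochondrial reads, called peaks, merged them over conditions and counted fragments per consensus peak. The submitters' processing notes name MACS2 and ChIPseeker 1.34.1. Whether the transposase offset was corrected was not examined here, and it would move a cut by few bases. The authors scaled on background bins, and reads outside peaks were not used here, so TMM factors over peaks took their place and background reads can raise weak peaks.

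Counts of 334857 peaks (median width 275 bp) were tested with edgeR 4.0.16 (glmQLFit and glmQLFTest, R 4.3.3) over all 18 libraries, 1 mean per group, with TMM factors and with loess offsets (limma 3.58.1, span 0.3), with Benjamini-Hochberg adjustment over all peaks. No filter on low counts was applied. Log2 CPM used a prior count of 2. Loci were sums over the peaks of 18893 of 20046 protein-coding genes (GENCODE 44, gene body and 3000 bp before the start), tested likewise. Depth was 6488975 to 11352032 counts per library. Peak starts are counted from 1, and distances run to the nearest protein-coding transcript start. Peaks of different genes can be shared, and strand is not defined. Exact two-sided permutation tests (924 assignments of 12 libraries) compared shares of counts, adjusted over 11 classes.

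Counts were simulated with no trend along abundance or GC content and with the same spread for all features. Changes were put only into features above a floor of mean counts. There, 73% of peaks changed by 1 and 9% of those changed by 0.5 on the log2 scale were recovered, and 100% and 96% of loci, with either scaling. Without a trend the scalings could hardly differ, so the simulation cannot tell which of them fits these libraries. Python 3.11.15 was used for annotation and DESeq2 1.42.0 as an alternative. Other alternatives were library totals, TMM over 10 kb bins or over the weaker 50% of features, average log2 CPM over 0, 12 libraries only, the replicate number as a block, each library left out, loess span 0.1 and quantile offsets. GC offsets, peak-level offsets, calls shared by both scalings and the middle range for words were added after seeing the data.

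Named were the members of each list called with both scalings (at most 6 with the smallest p, others at will), the 8 rises and 8 falls of loci (average log2 CPM at least 2) and of peaks (at least 1) with the largest size (the smaller of the TMM and loess values) among those called with both and without overlap of the 12 libraries, and the 5 genes with most opened and most closed peaks. Named windows, chromosomes and single peaks within named loci were chosen after their values were seen. Comparisons, lists and rules were drawn up with earlier results of these data known. Some items that these rules name are not reported here, and counts over lists still include them.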

Additional observations from a re-analysis of the deposited data

Results flagged for a closer look

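In 3 of 96 groups of 6 values, 1 library stood apart by Dixon's criterion, and chance alone gives about 1 in 20. The share of peaks without a count was 11.3% in unstimulated replicate 6, against a group median of 3.25%. This library also had the lowest share of counts in the weaker 50% of peaks (4.49%) and the highest in the 10000 strongest (39.0%), and leaving it out lowered the number of opened peaks called with both scalings from 5136 to 2914.

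The HCRTR2 locus had a log2 CPM of 1.33 in DMSO replicate 2, and the other 5 DMSO libraries lay between 1.72 and 1.95. All 6 were below the unstimulated range of 2.23 to 2.58, which the naming rule required.

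The intronic FAM110B peak that starts at 58191342 had a log2 CPM of -1.81 in 1 unstimulated library, against a group median of 0.01 and a highest value of 0.41. The peak held 31 counts in all unstimulated and 140 in all DMSO libraries.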

How the results depend on the processing

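Counts of peaks depended on the scaling. Opened peaks numbered 31861 with TMM, 54265 with library totals, 7584 with TMM over the weaker 50% of peaks, 15216 with DESeq2 and 6709 with loess offsets, and closed peaks 32570, 10894, 83810, 18587 and 6379, and 16767 with an average log2 CPM over 0. Quantile offsets in place of loess gave 3000 opened and 3512 closed. GC offsets left 3072 and 2142 of the peaks called with both scalings. Over all peaks the median log2 fold change was 0.13 with TMM, 0.34 with totals and -0.29 with the weaker peaks, and that of all loci -0.02 with TMM, -0.21 with 10 kb bins and -0.14 with the weaker loci. Higher loci numbered 2345 and lower loci 10344 with TMM over 10 kb bins, and 8518 were lower with TMM over the weaker 50% and 1408 with loess offsets. Peak-level offsets gave 1588 higher and 962 lower loci, GC offsets over loci 2580 lower, and peak-level GC offsets 1028 higher and 3106 lower. Of loci called with both scalings, 1124 higher and 368 lower remained with peak-level offsets and 550 and 231 with GC content added.

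For shares of counts, the mean log2 CPM after loess offsets reversed protein-coding starts (0.0198), lncRNA starts (0.0343), wide peaks (0.0728) and the zinc finger loci (0.0682). Introns (0.0155) and lncRNA bodies (0.0270) no longer passed, and within the stronger 50% of peaks lncRNA starts (-0.0273) and bodies (0.112) did not.

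Of 4208 values of 106 named features, 3867 kept direction and call, 320 lost the call, 4 gained it and 17 reversed. With TMM over 10 kb bins the loci of LRMDA (-0.0145), TRAF2 (-0.0693), BATF (-0.00124), ELN (-0.00850), CD55 (-0.0153), WNT4 (-0.00237), HDAC4 (-0.0493) and DNMT3A (-0.0176) reversed, as did TRAF2 with the weaker loci (-0.00342). With peak-level GC offsets GPC6 (0.00804), MAML2 (0.0248), BNC2 (0.00701), MMP12 (0.00682), COL14A1 (0.0427), ELN (-0.0577) and SMARCA4 (-0.0423) did, and LDLRAD4 (0.000736) with loess offsets without DMSO 3. The causes were not tested.

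With each library left out in turn, opened peaks numbered 18497 to 35956 with TMM, 4023 to 7490 with loess offsets and 2914 to 5924 with both, each lowest without unstimulated 6 and highest without DMSO 3. Closed peaks numbered 20700 (without unstimulated 6) to 37123, 3430 to 6852 and 2743 to 5367, the latter 2 lowest without DMSO 1. Higher loci numbered 2987 to 3961, 2023 to 2808 and 1831 to 2508. Lower loci numbered 1101 (without unstimulated 6) to 2826, 848 to 1687 and 570 to 1159 (both lowest without DMSO 1). Differences in shares of counts ran from -3.47 to -2.76 for protein-coding starts, -3.09 to -2.50 for wide peaks, -0.120 to -0.0908 for lncRNA starts, -0.0454 to -0.0359 for zinc finger loci, 0.277 to 0.357 for exons, 1.06 to 1.33 for introns, 0.275 to 0.347 for lncRNA bodies, 0.752 to 0.939 for intergenic peaks, 0.487 to 0.617 for gene deserts, 0.0927 to 0.124 for subtelomeric peaks and 0.00835 to 0.00996 for olfactory receptor loci.

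Samples with the same replicate number shared no clear deviation (r from -0.01 to 0.13, with 2 of 6 DMSO libraries closest to their own number), so they share only a number. With the replicate block 32344 peaks were opened and 34536 closed with TMM, 6794 and 6473 with loess offsets and 5251 and 4938 with both, and 2409 loci were higher and 997 lower with both. Peaks with few counts limit what could be called.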
